A study of Mus musculus with 12 samples.

Results

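Foxp3 and 9 other genes that are used to recognise regulatory T cells were followed across 4 groups of mouse skin: Foxp3, Ikzf2, Ikzf4, Il2ra, Ctla4, Icos, Tnfrsf4, Tnfrsf18, Il10 and Ccr8. The genes were chosen by name, not by their values, and all 10 were found among the 53465 Ensembl gene identifiers of the count files. RNA from whole skin had been sequenced in bulk, and the values are raw read counts per gene in 12 libraries, 3 in each group. The groups were the UVB-irradiated site of Foxp3-DE2 mice (UVB DE2), the UVB-irradiated site of Foxp3-WT mice (UVB WT), the untreated site of Foxp3-DE2 mice (untreated DE2) and the untreated site of Foxp3-WT mice (untreated WT). DE2 is the altered form of Foxp3 that the sample labels write as Foxp3-E2 and the series title as Foxp3dExon2, and the 3 spellings were taken as 1 genotype. A shaved patch of 3 by 2 cm on the back flank received 6 doses of ultraviolet B light, each of 200 mJ/cm2 in the sample labels and 100 mJ/cm2 in the protocol. Strain, age, sex and animal were not given, so libraries may share animals across sites, and p-values measure the spread between libraries. The study's title places the comparison in skin inflammation after UVB in mice that express the exon 2-deleted form.

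Regulatory T cells are CD4+ T cells that restrain other immune cells, and in skin they are known for gathering around hair follicles and for expanding after UVB exposure. Foxp3, a forkhead transcription factor encoded on the X chromosome, defines them. Helios (Ikzf2) and Eos (Ikzf4) are zinc finger factors of the Ikaros family that work beside Foxp3. The interleukin 2 receptor alpha chain (Il2ra) captures the growth factor these cells depend on, CTLA-4 withholds costimulation from other T cells, and ICOS, OX40 (Tnfrsf4) and GITR (Tnfrsf18) are costimulatory receptors. Interleukin 10 (Il10) is a suppressive cytokine, and CCR8 is a chemokine receptor of regulatory T cells in skin. Foxp3 is close to specific for regulatory T cells, whereas the other genes are also used by other T cells or by cells outside the T lineage.

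The genotype is named for exon 2 of Foxp3, so the sequence that such a form lacks is printed here with its 2 neighbouring junctions. The letters are from the GENCODE transcripts of GRCm38, plus strand, and run 5′ to 3′. Capitals mark the second coding exon of Foxp3-201, at chrX:7587074-7587178, and the lower-case letters on each side are the last 30 bases of the first coding exon and the first 30 bases of the third. The second line is the junction of Foxp3-208, an annotated transcript that skips this exon.
Foxp3-201: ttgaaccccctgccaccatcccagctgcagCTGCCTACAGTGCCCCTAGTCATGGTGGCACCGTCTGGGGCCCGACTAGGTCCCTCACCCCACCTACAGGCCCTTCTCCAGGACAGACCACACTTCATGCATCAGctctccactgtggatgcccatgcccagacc
Foxp3-208: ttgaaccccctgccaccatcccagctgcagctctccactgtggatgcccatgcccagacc
The exon holds 105 bases, which are 35 whole codons and 8.16% of the 1287 coding bases in 11 coding exons, so skipping it keeps the reading frame. Of 10 annotated Foxp3 transcripts, 8 hold it. That the labels' exon 2 is this second coding exon was taken from the numbering of coding exons. Counts per gene cannot show whether a library held either junction.

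Foxp3 (ENSMUSG00000039521, chrX:7573644-7595245, plus strand) was near the limit of detection. It had 1, 7 and 0 counts in the UVB DE2 libraries and 0 counts in each of the 3 UVB WT, 3 untreated DE2 and 3 untreated WT libraries. Only 2 of 12 libraries held a Foxp3 read, both of them UVB DE2, and 87.5% of the 8 reads were in replicate 2. As CPM, the count scaled to a common library total and corrected for library composition, the pooled level was 0.755 in UVB DE2, with an exact 95% Poisson interval of 0.326 to 1.49. The 0 counts of the other groups allow up to 0.271 CPM in UVB WT, 0.266 CPM in untreated DE2 and 0.218 CPM in untreated WT, taking 3 counts over a group as the limit. The lower end of the UVB DE2 interval lies above those limits, but a limit of 3 counts is tighter than an exact 95% Poisson interval. Such intervals for the groups at 0 reach 0.334 CPM (UVB WT), 0.327 CPM (untreated DE2) and 0.268 CPM (untreated WT). The UVB DE2 interval thus overlapped the UVB WT and untreated DE2 intervals and cleared only the untreated WT one. Without replicate 2 the UVB DE2 group held 1 count, or 0.155 CPM, which is under each of the 3-count limits, so any difference rests on that library. These intervals and limits cover counting error only, and Foxp3 was not tested with the other genes because it did not pass the filter on low counts. With no filter, edgeR's quasi-likelihood test did not call Foxp3 in UVB DE2 over untreated DE2 (adjusted p = 0.233) or over UVB WT (adjusted p = 0.471). Fewer regulatory T cells and less Foxp3 RNA per cell cannot be told apart in bulk skin, for this gene and for the others below.

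Overlapping annotation also limits the Foxp3 count. Of its 4577 exon bases, 31.5% are shared with other annotated genes on either strand, and 18.6% with Flicr, a noncoding RNA gene annotated on the same strand within the Foxp3 locus. Whether reads in shared bases were assigned to Foxp3 is not known, since the counting mode was not given in the sources used here. Flicr, which was looked at after its values were seen, had 0, 1 and 2 counts in UVB DE2, 0, 3 and 5 in UVB WT, 0, 0 and 0 in untreated DE2, and 3, 8 and 3 in untreated WT libraries. Its counts and those of Foxp3 were found together in 1 library, UVB DE2 replicate 2.

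**Figure D1:**
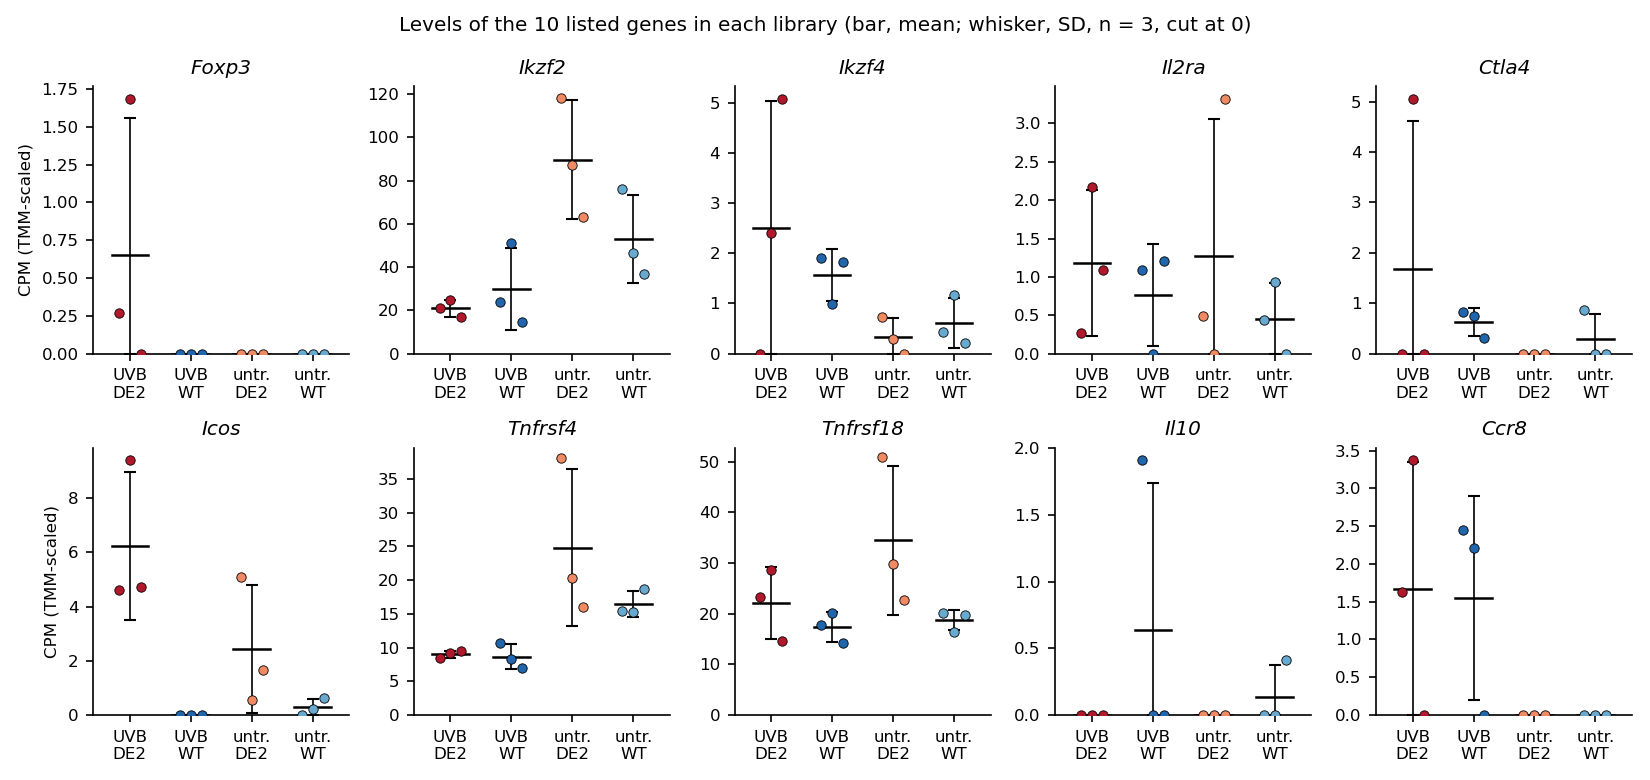
Levels of the 10 genes as TMM-scaled CPM on linear axes that start at 0, 1 panel per gene, with 1 point per library, a bar at the group mean and a whisker of 1 SD (n = 3, cut at 0). Ikzf2, Tnfrsf4 and Tnfrsf18 have reads in all 12 libraries, while Foxp3, Il10 and Ccr8 lie at 0 in 8 or more of the 12.

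Of the Ikaros family factors, Ikzf2 (ENSMUSG00000025997, chr1:69531214-69687245, minus strand) was well counted and lower after UVB in DE2 skin. Its levels were 20.9, 24.8 and 17.1 CPM in UVB DE2, 23.7, 51.2 and 14.5 CPM in UVB WT, 118, 87.1 and 63.4 CPM in untreated DE2, and 76.0, 46.6 and 36.7 CPM in untreated WT. All 3 UVB DE2 libraries lay below all 3 untreated DE2 libraries, whereas the 2 WT groups overlapped. Of all genes tested, 19.4% were lower in UVB DE2 without overlap of those libraries. In edgeR's quasi-likelihood test, Ikzf2 fell in UVB DE2 relative to untreated DE2 by 2.09 ± 0.41 on the log2 scale (SE; Benjamini-Hochberg adjusted p = 0.00195). The same contrast in WT skin gave a log2 fold change of -0.83 ± 0.40, which did not pass (adjusted p = 1). The difference between the 2 genotypes in this UVB change was -1.27 ± 0.57 (log2) and also did not pass (adjusted p = 0.166), so a larger change in DE2 was not established. Between genotypes Ikzf2 did not pass in UVB skin (-0.51 ± 0.41, adjusted p = 0.639), and without UVB WT replicate 2, the highest of its group, the sign turned to 0.13. In untreated skin the DE2 over WT log2 fold change was 0.75 ± 0.39 (adjusted p = 0.183).

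Ikzf4 (ENSMUSG00000002578, chr10:128630843-128645991, minus strand) was sparse. It had 0, 10 and 14 counts in UVB DE2, 7, 4 and 6 in UVB WT, 3, 1 and 0 in untreated DE2, and 2, 5 and 1 in untreated WT libraries. Summed over libraries and scaled for depth, its count was 6.38 times as high in UVB DE2 as in untreated DE2 (exact 95% counting interval 2.19 to 25.3) and 2.64 times as high in UVB WT as in untreated WT (1.08 to 7.08). UVB DE2 replicate 1 was at 0, so the DE2 groups overlapped, and the gene did not pass the filter for a test across libraries. The sparse Ikzf4 and the well counted Ikzf2 thus differed in sign between UVB and untreated skin.

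Among the costimulatory receptors, Icos (ENSMUSG00000026009, chr1:60977927-61000320, plus strand) was the 1 gene of the 4 tested that passed between the genotypes in irradiated skin. It had 17, 39 and 13 counts in UVB DE2, 0, 0 and 0 in UVB WT, 21, 2 and 6 in untreated DE2, and 0, 1 and 3 in untreated WT libraries. These are 6.24 ± 2.73 CPM in UVB DE2, under 0.271 CPM in UVB WT, 2.44 ± 2.36 CPM in untreated DE2 and 0.285 ± 0.315 CPM in untreated WT (SD, n = 3). All 3 UVB DE2 libraries lay above all 3 UVB WT libraries, and the summed level was at least 18.7-fold higher in UVB DE2, taking the lower end of its Poisson interval over the UVB WT limit. Without UVB DE2 replicate 2, which held 39 of the 69 counts, that bound was 11.6-fold. This difference passed edgeR's quasi-likelihood test (adjusted p = 0.0269). With any 1 of the 6 irradiated libraries left out it no longer passed (adjusted p up to 0.116). Of all genes tested, 11.9% had every UVB DE2 library above every UVB WT library.

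In untreated skin, the summed Icos count was 8.84 times as high in DE2 as in WT (exact 95% counting interval 3.1 to 34.6), but the 21 counts of untreated DE2 replicate 1 carried most of it. The test across libraries did not pass (log2 fold change 2.96 ± 1.18, adjusted p = 0.0896). UVB DE2 over untreated DE2 gave 1.34 ± 1.0 (log2, adjusted p = 0.36), with overlapping libraries. The interaction of genotype and UVB did not pass (adjusted p = 0.18), so the genotype difference was not shown to be larger in irradiated than in untreated skin. Icos passed the filter on low counts through its DE2 libraries, so its difference between genotypes is given as a single gene and supports nothing about the group of genes.

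Tnfrsf4 (OX40; ENSMUSG00000029075, chr4:156013843-156016612, plus strand) and Tnfrsf18 (GITR; ENSMUSG00000041954, chr4:156026164-156028895, plus strand) are neighbours with 9551 bases between them. Tnfrsf4 had 8.39, 9.15 and 9.44 CPM in UVB DE2, 10.6, 8.33 and 6.96 CPM in UVB WT, 38.1, 20.3 and 16.1 CPM in untreated DE2, and 15.4, 15.3 and 18.7 CPM in untreated WT. Every irradiated library lay below every untreated library. Of all genes tested, 5.22% were lower without overlap in UVB WT than in untreated WT, and 19.4% in UVB DE2 than in untreated DE2. The share for all irradiated against all untreated libraries together was not worked out. Tnfrsf4 fell in UVB DE2 relative to untreated DE2 by 1.46 ± 0.38 (log2; quasi-likelihood adjusted p = 0.0102). Without untreated DE2 replicate 1, the highest library, the change was -1.02 and did not pass (adjusted p = 0.0570). In WT skin the log2 fold change was -0.93 ± 0.38, with groups that did not overlap, and it did not pass over all genes (unadjusted p = 0.0273, adjusted p = 1). The 2 UVB changes did not differ detectably (interaction -0.54 ± 0.53, adjusted p = 0.576). Between genotypes Tnfrsf4 gave 0.06 ± 0.39 in UVB skin, a sign that turned with total-count scaling, and 0.59 ± 0.37 in untreated skin, and neither passed (adjusted p = 0.975 and 0.269).

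Tnfrsf18 varied less. Its levels were 23.3, 28.7 and 14.5 CPM in UVB DE2, 17.7, 20.1 and 14.2 CPM in UVB WT, 51.0, 29.9 and 22.7 CPM in untreated DE2, and 20.1, 16.5 and 19.7 CPM in untreated WT. The 3 untreated DE2 libraries lay above the 3 untreated WT libraries, and the other compared pairs of groups overlapped. Of all genes tested, 19.5% were higher without overlap in untreated DE2 than in untreated WT. The untreated DE2 over untreated WT change was 0.88 ± 0.34 (log2) and did not pass (adjusted p = 0.0799), although it passed when untreated DE2 replicate 3 was left out (1.14, adjusted p = 0.0441). UVB DE2 over untreated DE2 gave -0.63 ± 0.34 (adjusted p = 0.194), UVB WT over untreated WT -0.11 ± 0.35 (adjusted p = 1) and UVB DE2 over UVB WT 0.36 ± 0.35 (adjusted p = 0.727). Of the 1524 exon bases of Tnfrsf18, 27.2% are shared with the antisense gene Gm16008, whose reads cannot be told apart from it without strand.

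**Figure D2:**
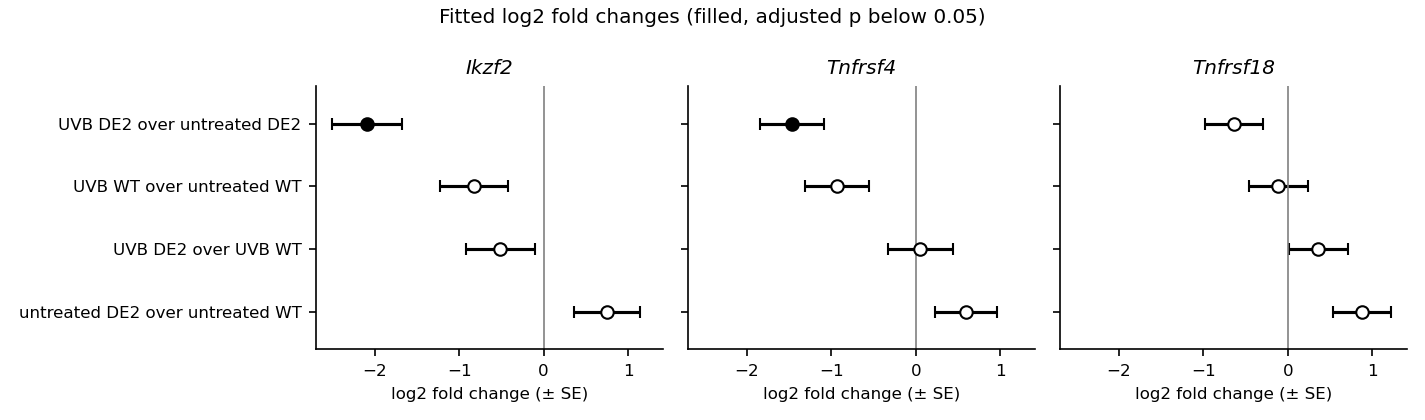
Fitted log2 fold changes (horizontal axis) with SE as whiskers for the 3 genes that had reads in every library, in 4 pairwise comparisons (rows). Filled points passed at an adjusted p below 0.05. Ikzf2 at -2.09 and Tnfrsf4 at -1.46 in UVB DE2 over untreated DE2 are the filled points.

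The other 2 receptors were sparse. Il2ra (ENSMUSG00000026770, chr2:11642807-11693193, plus strand) had 1, 9 and 3 counts in UVB DE2, 4, 0 and 4 in UVB WT, 2, 0 and 12 in untreated DE2, and 2, 4 and 0 in untreated WT libraries. All 4 groups overlapped. The summed count of UVB DE2 was 0.988 times that of untreated DE2 (exact 95% counting interval 0.428 to 2.27), and UVB WT over untreated WT gave 1.66 (0.505 to 5.80), so changes within those bounds were not detectable at this depth. Between genotypes, UVB DE2 over UVB WT gave 1.69 (0.651 to 4.715). Untreated DE2 over untreated WT gave 2.84 (1.03 to 9.03), with 12 of the 14 untreated DE2 counts in replicate 3.

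Ctla4 (ENSMUSG00000026011, chr1:60887000-60915832, plus strand) lies 62094 bases upstream of Icos. It had 0, 21 and 0 counts in UVB DE2, 3, 3 and 1 in UVB WT, 0, 0 and 0 in untreated DE2, and 4, 0 and 0 in untreated WT libraries. All UVB DE2 reads came from replicate 2, the library that also held 7 of the 8 Foxp3 reads. The summed ratio of UVB DE2 over UVB WT was 3.13 (exact 95% counting interval 1.28 to 8.71), yet UVB WT had Ctla4 reads in all 3 libraries and UVB DE2 in 1.

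Il10 (ENSMUSG00000016529, chr1:131019845-131024974, plus strand) was at 0 in all DE2 libraries. It had 7, 0 and 0 counts in UVB WT and 0, 0 and 2 in untreated WT libraries, so 10 of 12 libraries held none. The pooled level was under 0.283 CPM in UVB DE2, against 0.633 CPM in UVB WT, all of it from the 7 reads of replicate 1. The lower end of the UVB WT Poisson interval, 0.255 CPM, is below the UVB DE2 limit, so a difference was not detectable at this depth. Without UVB WT replicate 1 both irradiated groups were at 0.

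Ccr8 (ENSMUSG00000042262, chr9:120092114-120094906, plus strand) was read in irradiated skin only. It had 6, 14 and 0 counts in UVB DE2 and 9, 9 and 0 in UVB WT, and 0 counts in each of the 3 untreated DE2 and 3 untreated WT libraries. Thus 4 of 6 irradiated libraries and 0 of 6 untreated libraries held Ccr8 reads, with 1 irradiated library at 0 in each genotype. From the lower ends of the Poisson intervals, the summed level was at least 4.33-fold higher in UVB DE2 than in untreated DE2 and at least 4.42-fold higher in UVB WT than in untreated WT. UVB DE2 replicate 2 held 14 of the 20 UVB DE2 counts, and without it the first bound was 1.28-fold. Without UVB WT replicate 1 or 2 the second was 2.55-fold or 2.71-fold. The values with a library left out for Foxp3, Icos and Ccr8 were chosen after seeing the data. Between genotypes in irradiated skin the ratio was 1.158 (exact 95% counting interval 0.582 to 2.32). Ccr8 did not pass the filter. With no filter, edgeR's quasi-likelihood test called Ccr8 (adjusted p = 0.0344) and Ctla4 (0.0429) higher in UVB DE2 than in untreated DE2, and gave an adjusted p of 0.324 for Ccr8 in WT. All 3 untreated DE2 libraries were at 0 for both genes, and the 21 UVB DE2 counts of Ctla4 came from replicate 2 alone.

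Over the 10 genes, 4 passed the filter and were tested, and 6 were not. Relative to untreated DE2, 2 of the 4 were called in UVB DE2, both lower, where 27.8% of the 15126 genes tested were called and 13.4% were called lower. In UVB WT over untreated WT, edgeR called 0 of the 4 (1 at an unadjusted p below 0.05), where 0.0198% of all genes were called. DESeq2 also called 0 in that comparison. Relative to UVB WT, 1 of the 4 was called in UVB DE2, higher, where 2.96% of all genes were called and 2.35% were called higher. In untreated DE2 over untreated WT edgeR called 0 (2 at an unadjusted p below 0.05), where 23% of all genes were called, and in the interaction 0 (2 unadjusted), where 10.5% were called. The median log2 fold change of the 4 was -1.05 in UVB DE2 over untreated DE2 and -0.88 in UVB WT over untreated WT, beside 0.02 and 0.03 over all genes tested. With 4 genes, 1 of which passed the filter only through DE2 libraries, these counts describe single genes.

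Compared per kilobase of exon, GITR (Tnfrsf18) had the highest mean of the 10 in every group. It averaged 14.5 CPM per kb in UVB DE2, 11.4 in UVB WT, 22.7 in untreated DE2 and 12.3 in untreated WT. Tnfrsf4 followed with 6.59, 6.33, 18.2 and 12.1 CPM per kb in the same groups, and its spread overlapped that of Tnfrsf18 in both untreated groups. In untreated WT the 2 could not be ordered, since Tnfrsf4 was higher in replicates 2 and 3 and Tnfrsf18 in replicate 1. Ikzf2 had 1.80, 2.57, 7.72 and 4.57 CPM per kb. In UVB DE2, Icos at 1.82 ± 0.80 and Ikzf2 at 1.80 ± 0.33 CPM per kb (SD, n = 3) could not be ordered, and Ccr8 followed at 1.42 ± 1.44. Foxp3 was at 0.143 ± 0.198 CPM per kb in UVB DE2. The genes with most reads per kilobase were ones that are also used by other cells.

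The T cell content of the skin was read from the 7 genes of the T cell receptor complex (Cd3d, Cd3e, Cd3g, Cd247, Trac, Trbc1 and Trbc2). Their summed level was 83.7, 82.9 and 73.7 CPM in UVB DE2, 30.6, 31.1 and 17.6 CPM in UVB WT, 53.9, 51.0 and 28.2 CPM in untreated DE2, and 36.4, 22.3 and 26.4 CPM in untreated WT. The UVB DE2 libraries lay above all others in this sum. The CD3 chain genes alone had 120, 75 and 37 counts in UVB DE2 and 128, 65 and 28 in untreated DE2, which overlapped. In UVB DE2 over untreated DE2 their log2 fold changes were 0.85 ± 1.15 (Cd3d), -0.19 ± 1.01 (Cd3e), -0.04 ± 0.72 (Cd3g) and 0.32 ± 1.21 (Cd247). None of these passed. Of 20 T cell genes, 14 were tested. Their median log2 fold change was 1.73 in UVB DE2 over UVB WT and 1.35 in UVB DE2 over untreated DE2, beside -0.03 and 0.02 over all genes. EdgeR called 2 of the 14 in each of these comparisons, where 2.96% and 27.8% of all genes were called. Trbc2, the beta chain constant region, rose in UVB DE2 relative to UVB WT (1.66 ± 0.30, log2, adjusted p = 0.0077) and relative to untreated DE2 (1.17 ± 0.29, adjusted p = 0.0078). Il7r, the interleukin 7 receptor of resting and memory T cells, rose in the same comparisons by 4.91 ± 1.18 (adjusted p = 0.0356) and 3.25 ± 1.04 (adjusted p = 0.0299). With UVB DE2 replicate 2 left out, neither gene passed against UVB WT, and Il7r was lost there without any 1 of the irradiated libraries. Against untreated DE2, Il7r was lost without UVB DE2 replicate 1 or 2 or untreated DE2 replicate 2 or 3. DESeq2 called 5 of the 14 T cell genes higher in UVB DE2 than in UVB WT, where it called 5.79% of all genes. With limma voom 1 of them, Trbc2, was called, where 3.79% of all genes were called. No T cell gene fell in these edgeR tests over all 12 libraries. Cd4, which marks the lineage of regulatory T cells, had 0, 12 and 3 counts in UVB DE2, 11, 0 and 0 in UVB WT, 0, 0 and 0 in untreated DE2, and 1, 0 and 0 in untreated WT libraries.

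Set against those transcripts, Ikzf2, Tnfrsf4 and Tnfrsf18 were lowest in UVB DE2, the group with the highest T cell receptor complex level. Ikzf2 had 24.9, 29.9 and 23.2 counts per 100 T cell receptor complex counts in UVB DE2, 77.7, 165 and 82.8 in UVB WT, 220, 171 and 225 in untreated DE2, and 209, 209 and 139 in untreated WT. Tnfrsf4 had 10.03 to 12.8 counts per 100 in UVB DE2, 26.8 to 39.7 in UVB WT, 39.8 to 70.7 in untreated DE2 and 42.3 to 70.9 in untreated WT. Tnfrsf18 had 19.7 to 34.6 counts per 100 in UVB DE2, 58.0 to 81.0 in UVB WT, 58.6 to 94.6 in untreated DE2 and 55.4 to 74.8 in untreated WT. For all 3 genes every UVB DE2 library lay below every library of the other groups. Set against the CD3 chains alone, this did not hold for Tnfrsf18, which had 159 counts per 100 in UVB DE2 replicate 2 and 131 in untreated WT replicate 1. In mean CPM, Tnfrsf4 (8.99 against 8.64) and Tnfrsf18 (22.2 against 17.3) were not lower in UVB DE2 than in UVB WT. Their lower ratios against UVB WT thus came with the higher T cell receptor complex level. The share of all genes with such a separation was not worked out.

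Icos differed from these. It had 5.50, 11.3 and 6.40 counts per 100 T cell receptor complex counts in UVB DE2, 0, 0 and 0 in UVB WT, 9.46, 1.10 and 5.88 in untreated DE2, and 0, 1.04 and 2.36 in untreated WT. The 297 T cell receptor complex counts of UVB WT allow up to 1.01 Icos counts per 100, against 8.06 in the summed UVB DE2 libraries. Foxp3 stood at 0.935 per 100 in the summed UVB DE2 libraries, which is below the 1.01 per 100 that the UVB WT counts allow. On this scale a Foxp3 difference between the irradiated genotypes was not detectable. Ccr8 stood at 2.34 per 100 in UVB DE2 and 6.06 in UVB WT, and up to 0.594 and 0.767 per 100 were allowed by its 0 counts in untreated DE2 and untreated WT. These ratios describe summed skin RNA and were not tested.

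**Figure D3:**
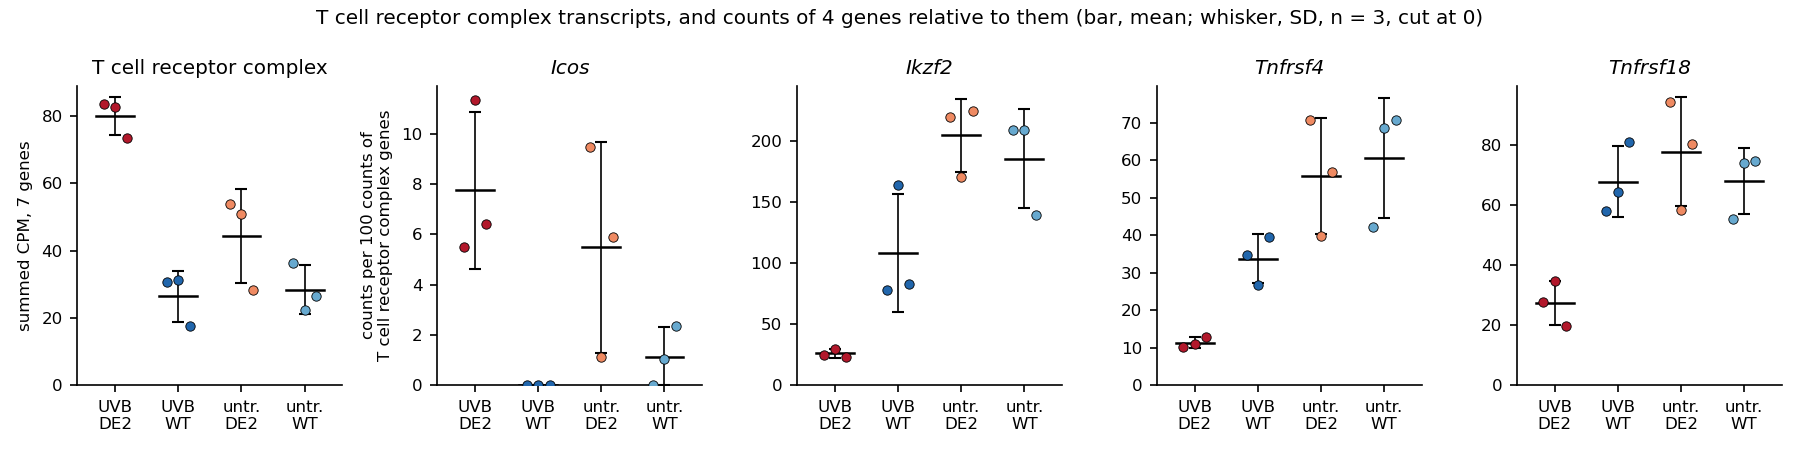
Summed CPM of the 7 T cell receptor complex genes (left panel), and counts of Icos, Ikzf2, Tnfrsf4 and Tnfrsf18 per 100 counts of those genes (other panels), on linear axes that start at 0, with 1 point per library, a bar at the group mean and a whisker of 1 SD (n = 3, cut at 0). UVB DE2 libraries are the highest for the T cell receptor complex, at 73.7 to 83.7 CPM, and the lowest for Ikzf2, Tnfrsf4 and Tnfrsf18 relative to it.

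Of 20 ligands, receptors and signalling partners of the 10 genes, 12 were tested. Relative to UVB WT, 3 rose and none fell in UVB DE2 in edgeR's quasi-likelihood test, where 2.96% of all genes were called, and the median log2 fold change was 0.89, beside -0.03 over all genes. Stat3, a transcription factor downstream of the interleukin 10 receptor and of other cytokine receptors, had 238 ± 18.7 CPM in UVB DE2, 98.9 ± 1.49 in UVB WT, 173 ± 10.2 in untreated DE2 and 102 ± 20.9 in untreated WT (SD, n = 3). It was higher in DE2 than in WT in irradiated skin (1.27 ± 0.18, log2, adjusted p = 0.00165) and in untreated skin (0.76 ± 0.18, adjusted p = 0.00676). Il10ra, the ligand-binding chain of the interleukin 10 receptor, had 98, 54 and 36 counts in UVB DE2 and 1, 15 and 3 in UVB WT libraries. It rose by 3.38 ± 0.74 (log2, adjusted p = 0.0227), while Il10 itself had no read in DE2 skin. The Stat3 difference in irradiated skin passed with each library left out in turn, and that in untreated skin was lost without untreated WT replicate 2. The Il10ra difference was lost without UVB DE2 replicate 1 or 2 or UVB WT replicate 1 or 3.

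Ccl8, a chemokine that acts on CCR8 in the mouse, had 504 ± 113 CPM in UVB DE2, 151 ± 14.1 in UVB WT, 117 ± 75.2 in untreated DE2 and 88.5 ± 52.6 in untreated WT. It rose in UVB DE2 relative to UVB WT by 1.74 ± 0.42 (log2, adjusted p = 0.0429) and relative to untreated DE2 by 2.11 ± 0.43 (adjusted p = 0.00289). The difference from untreated DE2 passed with each library left out in turn, and that from UVB WT was lost without any 1 of the irradiated libraries or untreated WT replicate 1. Ccl1, a further ligand of CCR8, had 0, 0 and 0 counts in UVB DE2, 0, 1 and 0 in UVB WT, 2, 3 and 1 in untreated DE2, and 0, 0 and 0 in untreated WT libraries. Ccr4, a chemokine receptor of skin-homing T cells, fell in UVB DE2 relative to untreated DE2 (-2.45 ± 0.78, log2, adjusted p = 0.029), with 1, 15 and 7 counts in UVB DE2 against 79, 24 and 35 in untreated DE2. Stat5b, which carries the interleukin 2 signal, also fell there (-1.47 ± 0.47, adjusted p = 0.0301) and was higher in untreated DE2 than in untreated WT (1.39 ± 0.46, adjusted p = 0.0429). Its libraries had 57, 124 and 108 counts in UVB DE2 and 176, 265 and 419 in untreated DE2. The fall of Ccr4 was lost without UVB DE2 replicate 1 or 3 or untreated DE2 replicate 1, and that of Stat5b without UVB DE2 replicate 1 or 2 or untreated DE2 replicate 2 or 3. The higher Stat5b of untreated DE2 was lost without any 1 of 6 libraries, among them all 3 untreated WT libraries.

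Il2, Tnfsf4 and Tnfsf18, which encode ligands of 3 of the receptors, were sparse. Il2 had 0 to 2 counts in every library. Tnfsf4, the OX40 ligand, had 0, 0 and 1 counts in UVB DE2, 0, 0 and 1 in UVB WT, 8, 0 and 0 in untreated DE2, and 0, 6 and 2 in untreated WT libraries. Tnfsf18, the GITR ligand, had 0, 0 and 0 counts in UVB DE2, 0, 1 and 0 in UVB WT, 0, 1 and 4 in untreated DE2, and 3, 7 and 6 in untreated WT libraries. These are too few reads to compare. Icosl, the ICOS ligand, had 7, 39 and 13 counts in UVB DE2, 16, 21 and 12 in UVB WT, 20, 0 and 1 in untreated DE2, and 2, 12 and 2 in untreated WT libraries. The Icosl libraries of the 2 irradiated groups overlapped, unlike those of its receptor. These ligands were picked for the receptors they bind and not by the rule for named genes.

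**Figure D4:**
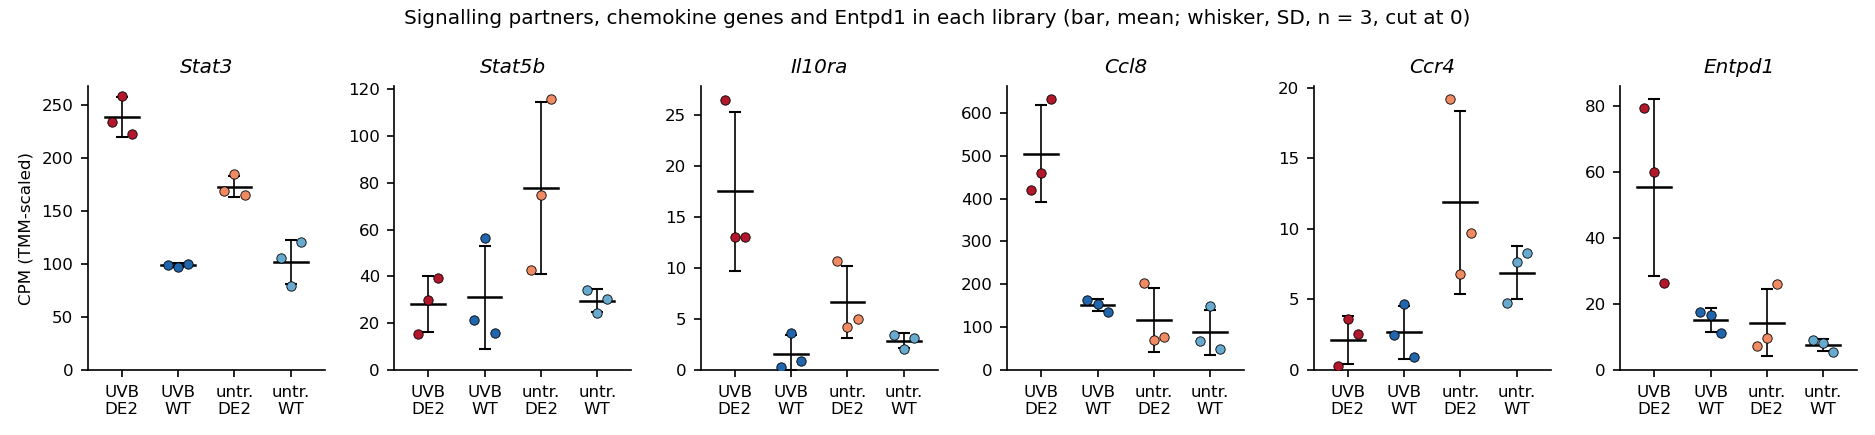
TMM-scaled CPM of Stat3, Stat5b, Il10ra, Ccl8, Ccr4 and Entpd1, 1 panel per gene, on linear axes that start at 0, with 1 point per library, a bar at the group mean and a whisker of 1 SD (n = 3, cut at 0). The 3 UVB DE2 libraries lie above all others for Stat3, Il10ra, Ccl8 and Entpd1, at means of 238, 17.5, 504 and 55.4 CPM.

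Among 26 further genes of regulatory T cell function, 20 were tested. In UVB DE2 over untreated DE2 5 rose and 1 fell, where 27.8% of all genes were called, with a median log2 fold change of 1.19, beside 0.02 over all genes. Areg, the tissue repair ligand amphiregulin, rose by 2.71 ± 0.51 (log2, adjusted p = 0.00138) and Prdm1, the factor Blimp-1 of effector lymphocytes and keratinocytes, by 1.34 ± 0.27 (adjusted p = 0.00197). Entpd1, the ATP-degrading ectoenzyme CD39, rose by 1.95 ± 0.48 (adjusted p = 0.00717) and was also higher in UVB DE2 than in UVB WT (1.87 ± 0.48, adjusted p = 0.0481). Gata3, a factor of type 2 lymphocytes and of the epidermis and hair follicle, fell by 0.84 ± 0.22 (adjusted p = 0.0119). In untreated DE2 over untreated WT, where 23% of all genes were called, 1 rose and 2 fell: Cd27, a costimulatory receptor, rose by 2.28 ± 0.75 (log2, adjusted p = 0.0399), and Prdm1 (-1.15 ± 0.26, adjusted p = 0.00621) and Areg (-1.63 ± 0.50, adjusted p = 0.029) fell. Areg and Prdm1 were thus higher in irradiated than in untreated DE2 skin, and lower in untreated DE2 than in untreated WT skin. Entpd1 was the 1 gene of the 20 that passed in UVB DE2 over UVB WT, and it kept that call in 4 of the 12 fits with a library left out. Cd27 kept its call in 5 and Areg its untreated one in 8 of the 12, and the fall of Gata3 was lost without UVB DE2 replicate 1.

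Of 22 genes that act at the Foxp3 locus or beside Foxp3, 21 were tested. In UVB DE2 over untreated DE2, 5 rose and 6 fell, in untreated DE2 over untreated WT 4 rose and 5 fell, and in the interaction 3 were higher and 4 lower. Of all genes, 27.8%, 23% and 10.5% were called in those comparisons. With a library left out, the interaction call of Runx1 held in 10 of 12 fits, that of Dnmt1 in 5 and that of Nr4a3 in 2. All 3 were lost without untreated WT replicate 2. Over those fits, 0 to 4 genes of the list were called higher and 0 to 4 lower in the interaction. EdgeR called none of the 21 in UVB DE2 over UVB WT (4 at an unadjusted p below 0.05), and DESeq2 called 1, Nr4a2, higher. Satb1, a chromatin organiser that acts early at the Foxp3 locus, had 13.6 ± 2.49 CPM in UVB DE2, 14.4 ± 7.48 in UVB WT, 64.0 ± 6.72 in untreated DE2 and 22.3 ± 5.59 in untreated WT (SD, n = 3). It fell in UVB DE2 relative to untreated DE2 by 2.24 ± 0.35 (log2, adjusted p = 0.000363) and was higher in untreated DE2 than in untreated WT (1.51 ± 0.33, adjusted p = 0.00502). Runx1, a partner of Foxp3 that is also a hair follicle factor, had 46.6 ± 4.42 CPM in UVB DE2, 49.1 ± 9.71 in UVB WT, 10.5 ± 4.98 in untreated DE2 and 41.6 ± 13.1 in untreated WT. For both genes untreated DE2 was the group that stood apart. Nr4a3, an activation-induced receptor that promotes Foxp3 expression, rose in UVB DE2 relative to untreated DE2 by 5.92 ± 1.07 (log2, adjusted p = 0.00109), with 79, 36 and 23 counts in UVB DE2 against 0, 2 and 0 in untreated DE2. The family did not move as 1, since Nr4a1 fell there (-1.49 ± 0.49, adjusted p = 0.0358) and Nr4a2 did not pass (-0.56 ± 0.88, adjusted p = 0.678). Both were picked as relatives of Nr4a3 and not by the rule for named genes.

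The skin and immune cell content moved with several of these comparisons. Muscle genes took 2.97 to 3.68% of counts in UVB DE2, 1.73 to 6.76% in UVB WT, 7.16 to 12.7% in untreated DE2 and 3.61 to 4.48% in untreated WT. Hair follicle genes took 1.05 to 1.81% in UVB DE2, 2.65 to 3.85% in UVB WT, 0.0147 to 0.0837% in untreated DE2 and 1.65 to 2.92% in untreated WT. In UVB DE2 over untreated DE2 all 17 tested muscle genes fell and all 18 hair follicle genes rose, beside the falls of Ikzf2 and Tnfrsf4, and their part in those falls was not tested. Untreated DE2 replicate 1, where Ikzf2, Tnfrsf4, Tnfrsf18 and Icos were highest of their group, had the lowest muscle share (7.16%) of the 3. It also had the highest hair follicle share (0.0837%) of the 3, and the part of either in those levels was not tested. Neutrophil genes were called higher in UVB DE2 for 10 of 10 tested against untreated DE2 and for 7 of 10 against UVB WT, where 27.8% and 2.96% of all genes were called, beside the Icos difference, and their part was not tested.

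The counts of the other cell lists stand beside 27.8% of all genes called in UVB DE2 over untreated DE2 and 2.96% over UVB WT. Of 13 macrophage genes 2 rose in UVB DE2 in each of its 2 comparisons, led by Cd14. Of 8 tested genes listed for natural killer and innate lymphoid cells, 3 rose against untreated DE2 (Arg1, Id2 and Klrd1). Against UVB WT 2 of them rose (Arg1 and Nkg7). Which cells those reads came from was not tested. Of 2 tested gamma delta T cell genes and 3 tested B cell genes, edgeR called none in any comparison (0 and, for untreated DE2 over untreated WT, 1 B cell gene at an unadjusted p below 0.05), and DESeq2 called none. Summed gamma delta T cell markers were 6.74 to 12.7 CPM in UVB DE2, 6.86 to 11.46 in UVB WT, 5.54 to 16.5 in untreated DE2 and 10.8 to 20.4 in untreated WT. Of 9 tested dendritic cell genes, Cd207, the Langerhans cell lectin, fell in UVB DE2 relative to untreated DE2 (-2.61 ± 0.84, log2, adjusted p = 0.0318), and of 7 mast cell genes Hdc rose and Mrgprb2 fell there. Of 14 helper T cell lineage genes 3 were tested and 1, Il4, rose in UVB DE2 relative to untreated DE2 (3.42 ± 1.22, adjusted p = 0.0496), with 16, 24 and 20 counts in UVB DE2 and 5, 0 and 1 in untreated DE2. With a library left out, the Cd207 call held in 7 of 12 fits and the Il4 call in 3. The epidermal and dermal genes were read in every library, and the Y-linked Ddx3y had 158 to 415 counts and Xist 0 to 18 counts in each.

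The genes whose pattern over the 12 libraries was closest to each tested gene were found among 13741 genes, those averaging log2 CPM 1 or more, by the root mean square difference of centred log2 CPM. For Ikzf2 they were Gpt (0.395), Extl1 (0.405) and Phactr2 (0.410), against a spread of 0.939 for Ikzf2 itself. For Tnfrsf4 they were Serpina12 (0.178), Eppk1 (0.205) and Cgn (0.283), against its own spread of 0.661, and for Tnfrsf18 Ranbp9 (0.217), Slitrk6 (0.238) and Ctdsp2 (0.244), against 0.485. For Icos they were Il33 (0.711), Nat8l (0.848) and Slc2a1 (0.967), against 1.93, a looser likeness. Among the 4 tested genes, the closest pair was Tnfrsf4 and Tnfrsf18 at 0.481, followed by Ikzf2 and Tnfrsf4 at 0.538, and Icos was 1.74 or more from each of the others.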

How the data were processed

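Bulk RNA of mouse skin was counted in 12 libraries in 4 groups of 3. The deposited values are raw counts per Ensembl gene, not normalized. Per the submitters' processing notes the build was GRCm38, and HTSeq 2.0.2, SAMtools 1.16, Picard 3.1.0 and Trimmomatic 0.39 were used. The sources used here name no aligner, annotation release, strand setting or duplicate handling. Of 53465 identifiers, 53274 were given a symbol from the GENCODE annotation of GRCm38, and positions, counted from 1, and sequences are from it. Totals were 2809142 to 4741726 counts per library. Analysis used R 4.3.3 and edgeR 4.0.16: filterByExpr, which left 15126 genes, TMM factors, and a robust quasi-likelihood fit with 1 mean per group over all 12 libraries (8 residual degrees of freedom). Benjamini-Hochberg values cover all genes tested in each of 5 contrasts, at a threshold of 0.05, and SEs were worked back from the test statistic. The fit was tested on simulated data. Poisson and ratio intervals are at 95%, and a group at 0 was bounded at 3 counts over the group. Log2 CPM used a prior count of 1. DESeq2 1.42.0, limma voom (limma 3.58.1), other scalings, other filters and leaving out each library were alternatives. No permutation test was run, since 3 against 3 libraries cannot go below a two-sided p of 0.1. The genes, lists and naming rule (all 10 genes, up to 4 genes of each list with the smallest p among those past the threshold, and the 3 genes closest in pattern) were chosen with earlier results of these data known. For some lists fewer than 4 are named, and 1 gene within the rule is not reported here.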

Additional observations from a re-analysis of the deposited data

How the results depend on the processing

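Ikzf2 remained called in UVB DE2 over untreated DE2 under all 21 alternatives (log2 fold change -2.31 to -1.84, adjusted p up to 0.0127). Depth limits Foxp3, Il10, Il2ra, Ctla4, Ikzf4 and Ccr8, which did not pass the filter. Without a filter the number of the 10 genes called was 4 in UVB DE2 over untreated DE2 and 1, Ikzf2, in the interaction (adjusted p = 0.0326). Signs turned for UVB DE2 over UVB WT. Ikzf2 ranged from -0.84 to 0.13 (log2) with 1 library left out, positive without UVB WT replicate 2, and was 0.13 without that library and untreated DE2 replicate 1. Tnfrsf4 was -0.0063 with total counts and ranged from -0.078 to 0.23 with 1 library left out, negative without UVB WT replicate 3. Leaving out both UVB WT replicate 2 and untreated DE2 replicate 1 left 1 of the 10 called in UVB DE2 over untreated DE2. Counts of all genes called in UVB WT over untreated WT, 3 as reported, were 1 with total counts, 141 with no filter, 22 with DESeq2, 0 with only the groups compared and 19 without both named libraries. In UVB DE2 over UVB WT they were 448 as reported, 1031 with no filter, 876 with DESeq2 and 754 without both libraries, and in the interaction 1585 and 2438 with no filter. Leaving out 1 library at a time gave 2979 to 4622 genes and 1 to 2 of the 10 genes in UVB DE2 over untreated DE2, 0 to 15 genes and 0 of the 10 in UVB WT over untreated WT, 130 to 616 genes and 0 to 1 of the 10 in UVB DE2 over UVB WT, 2108 to 3881 genes and 0 to 1 of the 10 in untreated DE2 over untreated WT (4226 genes without both named libraries), and 878 to 2585 genes and 0 of the 10 in the interaction. The cause of these changes was not tested. With the CD3 chains alone in place of the 7 T cell receptor complex genes, Foxp3 stood at 3.45 per 100 in UVB DE2, against a limit of 4.29 in UVB WT. No paired analysis was possible because the labels give no replicate number, animal or batch.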
